A study of Mus musculus with 4 samples.

Results

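The genes described here are 36 imprinted protein-coding genes, taken by name from a transcript abundance table that was summed to 22594 genes. Imprinted genes are expressed mainly from the copy inherited from 1 parent, and they are grouped here by locus and by the parental copy known to be active in mouse: 21 are known as paternally expressed, 14 as maternally expressed, and Gnas makes transcripts of either kind. All 36 were found in the table. RNA was profiled in MECPK and MSH2KO21B, each a mouse endometrial cancer cell line with 2 libraries, called replicates 1 and 2. The labels give neither genotype nor parent line for either, and they leave unsaid whether a line's replicates were grown apart. The p-values therefore reflect library-to-library spread alone, and that spread may be technical.

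Imprinting is set by DNA methylation that the egg or the sperm lays down at imprinting control regions. After fertilisation these marks are kept through the genome-wide loss of methylation by factors such as ZFP57, a zinc finger protein that binds a methylated hexamer, its partner TRIM28 and the maintenance methyltransferase DNMT1. Many imprinted genes act on fetal and placental growth, with Igf2 as a paternally expressed growth factor and Igf2r, Cdkn1c and Phlda2 as maternally expressed restraints. Several are imprinted in some tissues only: Ube3a in neurons, Ascl2, Osbpl5 and Ppp1r9a mainly in extraembryonic tissue, and Grb10 with the opposite parent in neurons. The deposited values carry no allele information, so the parental groups are background from other work and nothing here measures which copy was read.

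The unit is TPM, a share of each library's transcripts corrected for length. TPM keeps no depth, so the sequencing depth is unknown and a gene listed at 0 cannot be told from one below reach. A gene was tested, with limma on log2(TPM + 1), when 2 or more libraries held 1 TPM or more of it, every difference is MSH2KO21B minus MECPK, and a gene is called at a Benjamini-Hochberg adjusted p under 0.05 over the 11921 genes tested. All 11 epithelial markers were tested, and the lines carried different keratins. Epcam was at 442 and 446 TPM in MECPK and 114 and 109.9 TPM in MSH2KO21B, Krt8 at 1502 and 1531 against 45.9 and 43.5 TPM, and Krt5 at 1.10 and 0.68 against 3888 and 3810 TPM. By limma, MSH2KO21B had 3 epithelial markers called higher and 8 called lower. Of 8 Mullerian and endometrial markers 5 were tested, 1 called higher and 4 lower. The Mullerian marker Pax8 was at 22.9 and 25.03 TPM in MECPK and 4.15 and 4.93 TPM in MSH2KO21B, while Pgr and Sox17 were listed at 0 in all 4 libraries. Fibroblast and stromal markers summed to 0.769 to 1.37 TPM in MECPK and 2.14 to 2.17 TPM in MSH2KO21B (1 of 8 tested, with Lum at 0 throughout). Immune markers summed to 2.87 to 3.71 and 2.53 to 2.55 TPM (1 of 6 tested, Cd3e at 0), and endothelial markers to 0.034 to 0.072 and 1.83 to 2.78 TPM (1 of 4 tested, Kdr at 0). Of the tested genes in these lists, Pdgfra (fibroblast, 0.60) and Pecam1 (endothelial, 1.13) were called higher by limma, and the immune marker Cd68 was not called. Markers of tissues where imprinted genes are prominent differed in sum as well. Trophoblast markers summed to 50.7 to 66.7 TPM in MECPK and 304 to 313 TPM in MSH2KO21B, with 3 of 10 tested, Tpbpa and Hand1 at 0 in all 4 libraries and Prl2c2 the main contributor (36.9 and 54.8 against 252 and 259 TPM). The trophoblast markers did not move one way, with 2 called higher by limma (Prl2c2 and Tfap2c) and 1 lower (Eomes). Tfap2c was at 0.24 and 0.29 TPM in MECPK and 51.7 and 53.1 TPM in MSH2KO21B, and Eomes at 12.1 and 10.8 against 0.20 and 0.25 TPM. Of those not tested, Plac1 was at 1.11 and 0.61 against 0.076 and 0 TPM, and Elf5 at 0 in MECPK against 0.79 and 1.02 TPM. Neuronal markers summed to 36.7 to 50.8 and 377 to 382 TPM, with 2 of 8 tested and Snap25, Syt1 and Rbfox3 at 0 throughout. The 2 tested went opposite ways by limma. Map2, the main contributor in MECPK, was called lower, at 34.6 and 49.3 against 0.65 and 4.94 TPM. Tubb3, the main contributor in MSH2KO21B, was called higher, at 1.59 and 1.27 against 379.9 and 371 TPM. The part of these markers in the results on imprinted genes was not tested. In bulk RNA, fewer cells of a type and less RNA per cell cannot be told apart.

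Several imprinted genes were clearly expressed in 1 line and low or nearly absent in the other. Among paternally expressed genes, Peg3, Plagl1 and Zrsr1 were higher in MSH2KO21B, and Mest and Snrpn were higher in MECPK. Nnat was also higher in MECPK and past 2-fold, by a smaller log2 difference (-1.14). The 4 maternally expressed genes called past 2-fold, Blcap, Kcnq1, Phlda2 and Ppp1r9a, were lower in MSH2KO21B. The other 18 members never reached 1 TPM in any library, and every member of the Dlk1 and Grb10 regions was among them.

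Promoters of the 4 paternally expressed genes with the largest differences are shown first, because Peg3, Snrpn, the downstream Mest promoter and the Plagl1 promoter are known to lie at germline methylated regions, and Mest has a further promoter upstream. Sequences are 300 bases, 250 before to 50 after a RefSeq start (build GRCm38.p6), written 5′ to 3′ on the gene's strand. Capitals mark the hexamer TGCCGC, the core of the motif bound by ZFP57, or its reverse complement GCGGCA.
Peg3 promoter, chr7:6730370-6730669, minus strand: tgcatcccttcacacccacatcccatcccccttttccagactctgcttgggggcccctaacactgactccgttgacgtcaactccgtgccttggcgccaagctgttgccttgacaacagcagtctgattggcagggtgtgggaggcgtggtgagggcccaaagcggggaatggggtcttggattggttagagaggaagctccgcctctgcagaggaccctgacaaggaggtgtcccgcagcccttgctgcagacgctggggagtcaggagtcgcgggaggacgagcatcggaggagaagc
Plagl1 promoter, chr10:13090582-13090881, plus strand: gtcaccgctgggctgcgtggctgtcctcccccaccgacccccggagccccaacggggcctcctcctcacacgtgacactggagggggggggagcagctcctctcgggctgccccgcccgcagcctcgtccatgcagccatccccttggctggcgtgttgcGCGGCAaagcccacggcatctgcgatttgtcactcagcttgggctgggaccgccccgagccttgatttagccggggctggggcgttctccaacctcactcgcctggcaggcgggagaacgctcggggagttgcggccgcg
Mest downstream promoter, chr6:30737803-30738102, plus strand: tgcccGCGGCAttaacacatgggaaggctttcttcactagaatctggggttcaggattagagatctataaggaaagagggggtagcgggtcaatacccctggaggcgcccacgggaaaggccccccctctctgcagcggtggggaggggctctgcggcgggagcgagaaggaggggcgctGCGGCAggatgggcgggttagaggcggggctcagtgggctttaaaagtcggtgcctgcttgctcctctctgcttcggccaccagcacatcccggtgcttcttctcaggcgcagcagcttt
Mest upstream promoter, chr6:30733256-30733555, plus strand: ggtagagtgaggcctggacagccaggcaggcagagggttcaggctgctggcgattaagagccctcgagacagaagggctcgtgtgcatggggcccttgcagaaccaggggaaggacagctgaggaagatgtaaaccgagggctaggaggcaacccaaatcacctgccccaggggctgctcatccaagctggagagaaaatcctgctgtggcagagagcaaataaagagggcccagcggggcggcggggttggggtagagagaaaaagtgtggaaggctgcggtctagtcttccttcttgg
Snrpn promoter, chr7:60005150-60005449, minus strand: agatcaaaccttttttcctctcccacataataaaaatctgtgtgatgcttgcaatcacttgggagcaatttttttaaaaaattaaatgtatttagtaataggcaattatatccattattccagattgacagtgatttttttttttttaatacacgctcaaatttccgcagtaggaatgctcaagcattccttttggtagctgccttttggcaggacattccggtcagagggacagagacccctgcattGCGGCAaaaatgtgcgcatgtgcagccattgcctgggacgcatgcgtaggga

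The hexamer was searched on both strands, and all matches in these windows were GCGGCA as printed, none overlapping another. It occurred 2 times in the downstream Mest window, 1 time in the Plagl1 window and 1 time in the Snrpn window, and not in the Peg3 or upstream Mest windows. The Peg3 window shares 263 bases with the window of Usp29, which is read in the opposite direction. RefSeq windows were matched for 30 of the 36 members, 50 windows in all, of which 12 (24%), belonging to 11 genes, held the hexamer. Over all 32851 windows of the same length the share was 11.6%, and the median number of CpG dinucleotides was 7 against 14.5 in the members' windows. The hexamer holds a CpG itself, so these shares differ along with base composition. A match is only a match of letters, and no match says only that the letters are not in that window.

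Of the 36 members, 18 passed the filter and were tested, 8 paternally expressed, 9 maternally expressed, and Gnas. By limma, 16 were called, against 76.2% of all genes tested. Of these, 8 were higher in MSH2KO21B, where 46.6% of all genes were called higher, and 8 were lower, where 29.7% of all genes were called lower. Called and past 2-fold were 10 members (55.6% of those tested), against 30.3% of all genes, with 3 higher against 18.9% and 7 lower against 11.4%. The libraries of the lines did not overlap for 16 of the 18 members, a share of 88.9%, which is also the share over all genes (88.9%). These shares leave out the 18 members below the filter and cannot be read as a property of imprinted genes. Peg3, Mest, Snrpn, Kcnq1 and Ppp1r9a averaged under 1 TPM in one line, so they passed only through the line where they were high (5 of 18, against 14.4% of all genes tested).

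The balance of directions depends on how libraries are scaled. The median of all genes was 0.19 on the TPM values themselves, -0.03 when libraries were quantile normalized and 0.02 under median-ratio scaling. The share of called genes that were higher was 61.1%, 48.1% and 50.7% in that order. No tested member changed sign under either scaling. Medians of tested non-member genes also differed between chromosomes. The median was 0.585 on chromosome 7, where 8 of the tested members lie. It was 0.01 on chromosome 2, 0.15 on chromosome 6 and -0.21 on chromosome 10. Whether the members follow their chromosome was not tested.

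**Figure D1:**
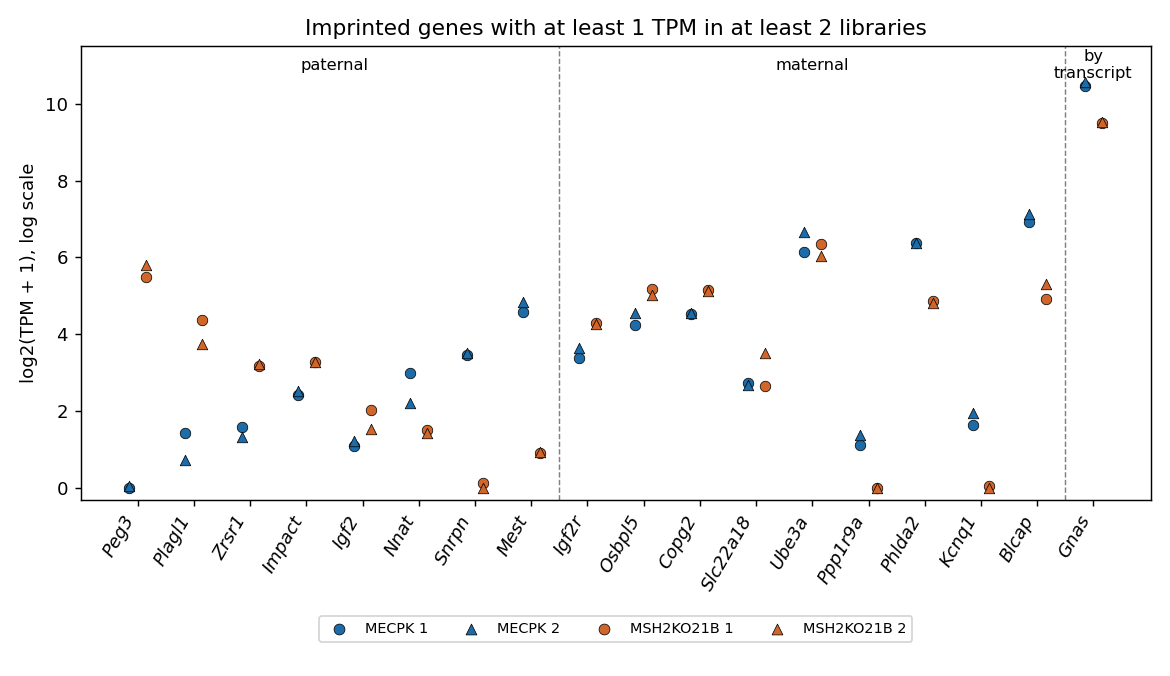
Level of each tested imprinted gene in each of the 4 libraries, as log2(TPM + 1). Colours mark the lines, shapes the replicates, and dashed lines separate genes known as paternally expressed, maternally expressed and transcript-dependent; Peg3 sits near 0 in both MECPK libraries and Snrpn, Kcnq1 and Ppp1r9a near 0 in both MSH2KO21B libraries.

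Peg3 had the largest difference of the members. It encodes a zinc finger protein that binds DNA and restrains growth-related genes (ENSMUSG00000002265, chromosome 7, 6703892 to 6730431, minus strand). Its level was 0.011 and 0.045 TPM in the MECPK libraries and 43.9 and 55.0 TPM in the MSH2KO21B libraries. It was nearly absent from both MECPK libraries and clearly present in both MSH2KO21B libraries (log2 difference 5.61 ± 0.13 SE, limma adjusted p = 1.40e-05). Most of it was the full coding model Peg3-201, at 37.1 and 40.0 TPM. The rest was split evenly over Peg3-202 and Peg3-203, which share a short coding stretch of 348 nt and are annotated as targets of nonsense-mediated decay.

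The other members of the Peg3 cluster stayed under 1 TPM in every library. Usp29, a deubiquitinase gene transcribed from the shared promoter region, was at 0 in MECPK replicates 1 and 2 and at 0.32 and 0.27 TPM in MSH2KO21B. Zim1, a maternally expressed zinc finger gene, was at 0 in MECPK and at most 0.018 TPM in MSH2KO21B. Both thus had the higher values in MSH2KO21B, as Peg3 did, at levels where TPM gives little resolution. Neither passed the filter. Among the nearest tested genes outside the cluster, Zfp28 was not called (0.21, adjusted p = 0.774), while Zfp444 (1.08), Zfp954 (0.83) and Zfp418 (1.38) were called higher by limma, all far below the size of the Peg3 difference.

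Plagl1, also called Zac1, is a zinc finger transcription factor that promotes cell cycle arrest and is active on other imprinted genes in mouse. It was at 1.70 and 0.68 TPM in MECPK and 19.9 and 12.5 TPM in MSH2KO21B, so the lines did not overlap although the replicates of each line differed (2.98 ± 0.32 SE, limma adjusted p = 0.0011). Most of the gap between the MSH2KO21B libraries lay in Plagl1-222, a model with 51 nt of coding sequence, at 7.36 and 1.37 TPM. The long model Plagl1-202 starts at 13090788, inside the printed window, and had 0.54 and 0.53 TPM in MECPK against 7.58 and 8.04 TPM in MSH2KO21B. The flanking tested genes were all called lower in MSH2KO21B: Sf3b5 (-0.67), Stx11 (-0.55), Ltv1 (-0.47) and Phactr2 (-2.12).

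Zrsr1 is a retrocopy of a U2AF-related splicing gene that lies within Commd1. It rose from 2.03 and 1.53 TPM in MECPK to 8.05 and 8.35 TPM in MSH2KO21B (1.73 ± 0.12 SE, limma adjusted p = 2.39e-04), with no overlap. Its host Commd1 was not called, with 68.3 and 60.1 TPM against 60.4 and 60.5 TPM (adjusted p = 0.361). Reads could be shared with the parent gene of the retrocopy, so the Zrsr1 values are uncertain.

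Mest fell, by the largest log2(TPM + 1) difference of the members that were lower, an order that depends on the pseudocount: with 0.1 TPM Snrpn (-6.19) was beyond Mest (-4.66). Mest, also called Peg1, encodes a protein with the fold of alpha/beta hydrolases and is widely used as a marker of paternal expression (ENSMUSG00000051855, chromosome 6, 30723547 to 30748465, plus strand). It was at 22.9 and 27.7 TPM in MECPK and 0.88 and 0.93 TPM in MSH2KO21B (-3.78 ± 0.11 SE, limma adjusted p = 2.65e-05). In MECPK, models that begin at the downstream promoter, Mest-211 at 30738050 and Mest-202 at 30738053, summed to 22.9 and 27.4 TPM, and those that begin upstream to 0 and 0.34 TPM. In MSH2KO21B the downstream models were listed at 0 in both libraries and the upstream ones held 0.88 and 0.93 TPM, chiefly Mest-210, which starts at 30733506 inside the upstream window printed above. The upstream values are below 1 TPM, a level that TPM without depth does not resolve, so this describes only where the remaining signal was placed, and a difference in the starts used was not tested.

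Copg2, a subunit gene of the COPI vesicle coat that runs towards Mest on the opposite strand, was called in the other direction. It had 22.2 and 22.7 TPM in MECPK and 34.9 and 33.7 TPM in MSH2KO21B (0.59 ± 0.06 SE, limma adjusted p = 7.22e-04). The gene spans overlap by 912 bp but share no coding base. Of the nearest tested genes on either side, Cep41 (-0.94), Mkln1 (-0.70) and Podxl (-5.28) were called lower and Cpa4 (1.16) higher.

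**Figure D2:**
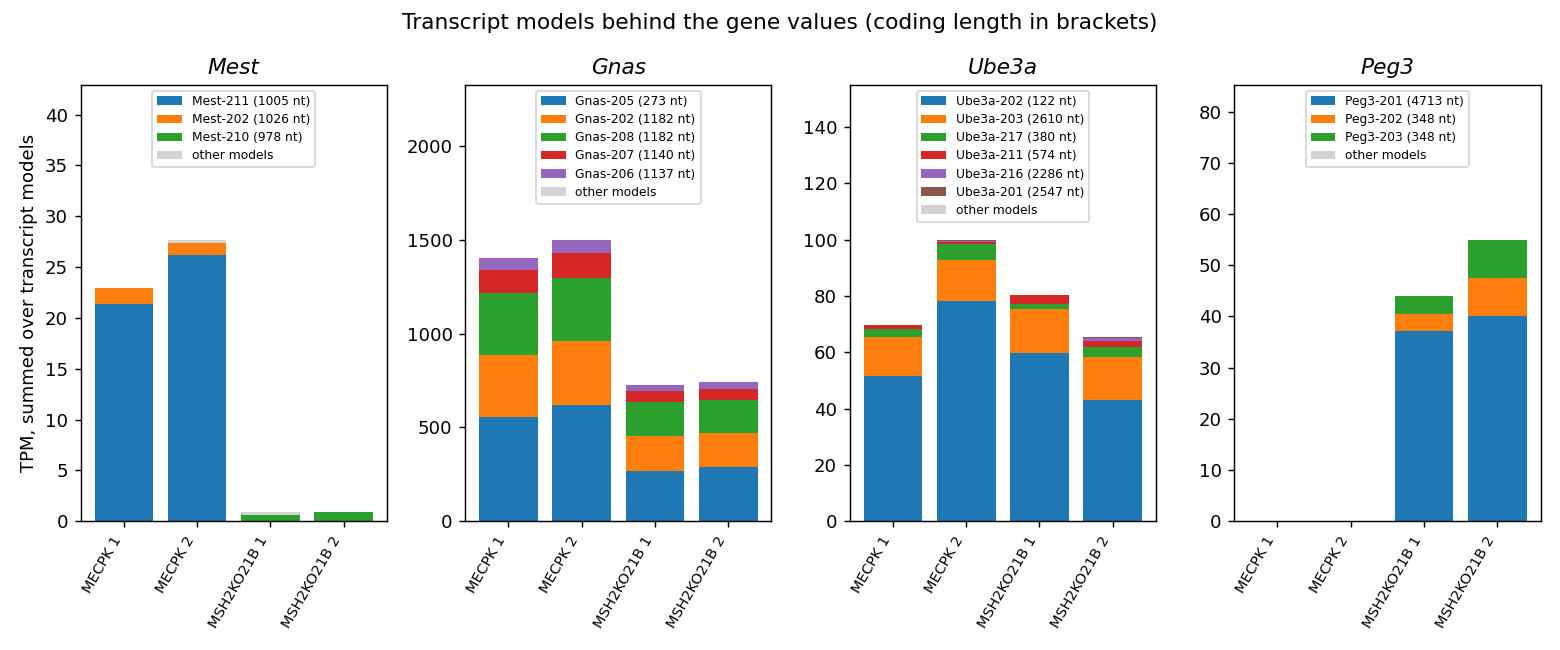
Stacked TPM of transcript models for Mest, Gnas, Ube3a and Peg3 in each library, with the coding length of each model in the legend. Mest is made of Mest-211 and Mest-202 in MECPK, while in Ube3a the largest block is a model with 122 nt of coding sequence.

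The Snrpn region, named in people for the Prader-Willi and Angelman syndromes, holds 5 paternally expressed members, of which Snrpn alone passed the filter. Snrpn encodes the spliceosome protein SmN (ENSMUSG00000102252, chromosome 7, 59982495 to 60140219, minus strand). It had 9.97 and 10.4 TPM in MECPK and 0.099 and 0 TPM in MSH2KO21B (-3.41 ± 0.09 SE, limma adjusted p = 1.95e-05). The models Snrpn-201 and Snrpn-202 start far apart, at 60005111 and 60140219, but share their coding sequence and so have the same value in each library, which leaves the promoters undivided. Snurf, the short reading frame carried on the same transcripts and not on the member list, had 19.2 and 15.8 TPM in MECPK and was listed at 0 in both MSH2KO21B libraries. It overlaps another gene model at 19.2 and 18.5 TPM, so its level is uncertain.

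The remaining paternally expressed genes of the region were low in both lines and were not tested. Mkrn3, a makorin RING finger gene tied to the timing of puberty, had 0.53 and 0.54 TPM in MECPK and 0 and 0.032 TPM in MSH2KO21B. Peg12, of the FRAT family, had 0.21 and 0.42 TPM in MECPK and 0 in both MSH2KO21B libraries. Ndn, the growth suppressor necdin, was at 0.21 and 0.055 against 0.034 and 0 TPM, and its relative Magel2 stayed at or under 0.039 TPM in all 4. Mkrn3 and Peg12 thus had the higher values in MECPK, as Snrpn did, at levels where TPM gives little resolution.

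Ube3a, the E3 ubiquitin ligase gene at the other end of the region, is maternally expressed in neurons and read from both copies elsewhere. It was not called, with 69.8 and 99.997 TPM in MECPK and 80.2 and 65.3 TPM in MSH2KO21B (-0.20 ± 0.20 SE, limma adjusted p = 0.398), and the lines overlapped. Between 66.1% and 78.2% of these values sat on Ube3a-202, a fragment model with 122 nt of coding sequence. The long model Ube3a-203 had 14.1 and 14.7 TPM in MECPK and 15.4 and 15.2 TPM in MSH2KO21B. The sign of the gene difference turned without MECPK replicate 2 (0.05) and with only transcripts of at least 300 coding nt (0.08). Atp10a, the nearest tested gene beyond Ube3a, was called lower (-0.45, adjusted p = 0.047), and Klf13, beyond Peg12, higher (0.75).

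**Figure D3:**
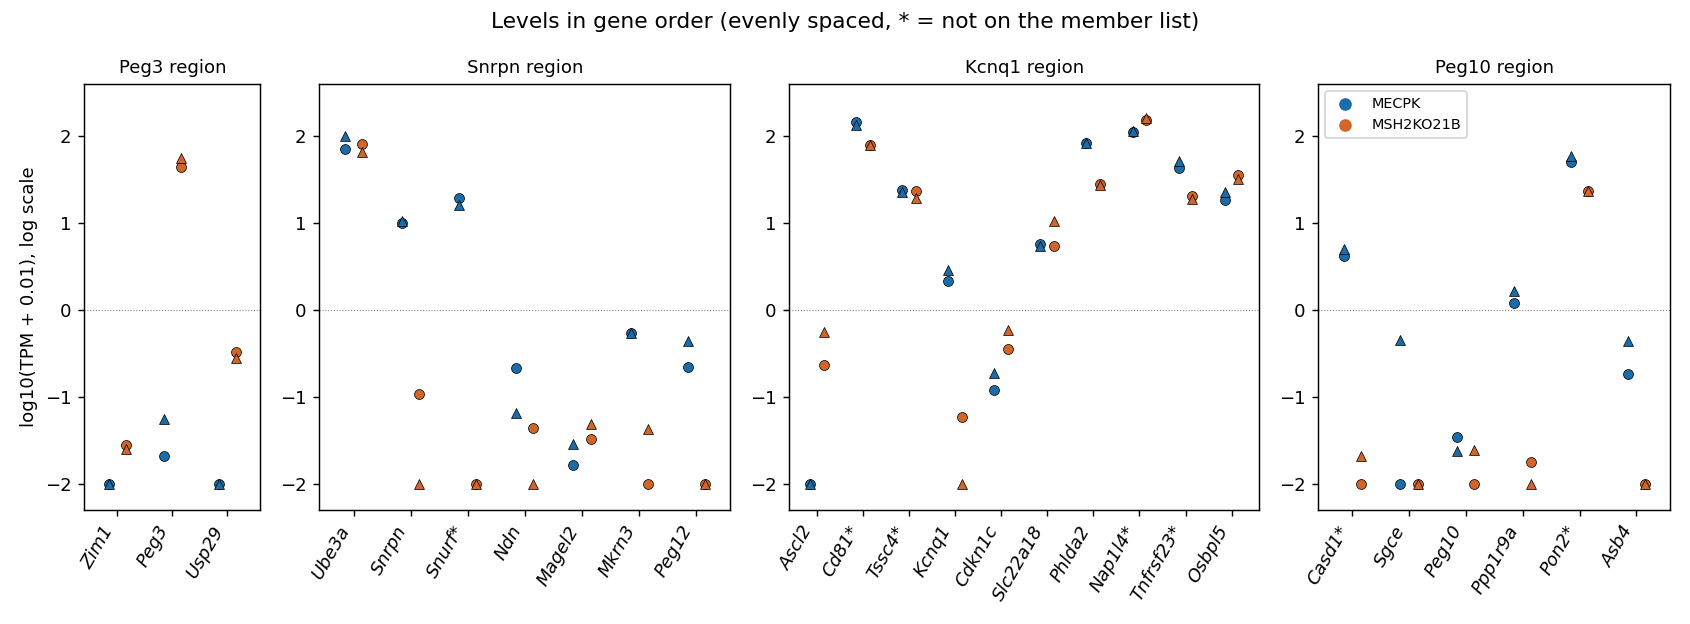
Levels of genes in 4 imprinted regions in chromosomal order, evenly spaced, as log10(TPM + 0.01); -2 means listed at 0 and the dotted line is about 1 TPM. In the Snrpn region Ube3a stays high in both lines while Snrpn and Snurf lie at or near the floor in MSH2KO21B, and in the Peg3 region only Peg3 is above 1 TPM.

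In the Igf2 and Kcnq1 domains, which lie side by side on distal chromosome 7, members moved in both directions. Phlda2 encodes a small pleckstrin homology protein that limits placental growth. It had 81.9 and 82.6 TPM in MECPK and 28.0 and 27.4 TPM in MSH2KO21B (-1.54 ± 0.05 SE, limma adjusted p = 3.05e-05), with no overlap. Kcnq1, a potassium channel gene whose intron holds the control region of the domain, had 2.11 and 2.88 TPM in MECPK and 0.048 and 0 TPM in MSH2KO21B (-1.76 ± 0.13 SE, adjusted p = 3.51e-04). Osbpl5, of the oxysterol-binding protein family, was higher in MSH2KO21B at 35.2 and 31.7 TPM against 18.1 and 22.5 TPM (0.70 ± 0.12 SE, limma adjusted p = 0.0058). That call was lost without MSH2KO21B replicate 1 (adjusted p = 0.079) or replicate 2 (0.0549).

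Slc22a18, a transporter gene between Cdkn1c and Phlda2, was not called. It had 5.71 and 5.40 TPM in MECPK and 5.35 and 10.4 TPM in MSH2KO21B, so 1 library stood apart (0.38 ± 0.29 SE, limma adjusted p = 0.291). Its sign turned without MSH2KO21B replicate 2 (-0.05), and without replicate 1 it was called (0.80, adjusted p = 0.0191). The full coding models Slc22a18-201 and Slc22a18-202, which share 1 coding sequence, were each at 0.89 and 0.94 TPM in MECPK and 0.90 and 1.04 TPM in MSH2KO21B. Nearly all of the gap between the MSH2KO21B libraries lay in models with 132 nt or 195 nt of coding sequence. Cdkn1c, the gene of the CDK inhibitor p57, stayed under the filter with 0.11 and 0.18 against 0.35 and 0.58 TPM. Ascl2, a transcription factor gene of trophoblast and intestinal stem cells, was at 0 in both MECPK libraries and at 0.22 and 0.55 TPM in MSH2KO21B.

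Genes between these members gave a mixed picture too. Cd81 (-0.80), Tnfrsf23 (-1.21) and Tnfrsf26 (-1.69) were called lower, Nap1l4 (0.49) and Trpm5 (1.74) higher, and Tssc4, Cars and Tnfrsf22 were not called by limma. Phlda2 and Kcnq1 went against the median of chromosome 7, which was 0.585. Osbpl5, at 0.70, lay close to it.

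Igf2, the fetal growth factor, was low in both lines. It had 1.14 and 1.34 TPM in MECPK and 3.08 and 1.91 TPM in MSH2KO21B (0.62 ± 0.18 SE, limma adjusted p = 0.0325), a difference about that of its chromosome. The call was lost after quantile normalization (0.07, adjusted p = 0.789), after median-ratio scaling (0.0606) and with no filter on low values (0.0614). Leaving out MECPK replicate 1 (0.16), MECPK replicate 2 (0.111) or MSH2KO21B replicate 1 (0.051) also lost it, and without the last the log2 difference itself was 0.38. Igf2r, the receptor that takes up IGF2 for breakdown, rose from 9.55 and 11.6 TPM to 18.5 and 18.3 TPM (0.75 ± 0.11 SE, limma adjusted p = 0.0026, or 0.0503 without MSH2KO21B replicate 1). Grb10, the adaptor that dampens signalling from the insulin and IGF1 receptors, reached at most 0.017 TPM. Ddc, next to Grb10 and the gene of aromatic amino acid decarboxylase, reached at most 0.040 TPM, while Fignl1 just beside it was at 28.9 and 24.6 TPM in MECPK and 26.6 and 25.2 TPM in MSH2KO21B.

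On chromosome 6 the 4 members of the Peg10 region were low in both lines. Peg10, a placental gene derived from a retrotransposon, and Sgce, the gene of epsilon-sarcoglycan that shares its promoter region, did not pass the filter: Peg10 reached 0.025 TPM, and Sgce was at 0.44 TPM in MECPK replicate 2 and 0 in the other libraries. Ppp1r9a, which encodes the actin-binding protein neurabin, had 1.20 and 1.62 TPM in MECPK and 0.0076 and 0 TPM in MSH2KO21B (-1.26 ± 0.11 SE, limma adjusted p = 6.30e-04). Asb4, an ankyrin repeat gene, was at 0.17 and 0.42 TPM in MECPK and at 0 in both MSH2KO21B libraries. Casd1, a sialic acid acetyltransferase gene next to Sgce, went the same way, with 4.13 and 4.96 TPM against 0 and 0.011 TPM (-2.46, adjusted p = 6.69e-05). Pon2, within the region, was lower as well (-1.19), whereas Dync1i1 beyond Asb4 was at 0 in MECPK and had 6.58 and 5.92 TPM in MSH2KO21B.

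On chromosome 2, Nnat and Blcap were lower together. Blcap, a small conserved gene whose intron holds Nnat, fell from 120 and 139 TPM to 29.3 and 38.4 TPM (-1.91 ± 0.15 SE, limma adjusted p = 4.07e-04). Its models Blcap-201 and Blcap-202 share 1 coding sequence and each had 59.8 and 69.3 TPM in MECPK against 14.6 and 14.2 TPM in MSH2KO21B. Nnat, the gene of the small membrane protein neuronatin, had 7.05 and 3.66 TPM in MECPK and 1.88 and 1.69 TPM in MSH2KO21B (-1.14 ± 0.28 SE, limma adjusted p = 0.0171). The MECPK replicates differed mainly through Nnat-205, at 4.23 and 0.012 TPM. Without MECPK replicate 1 the Nnat difference was -0.74, still called but short of 2-fold. The Nnat call was lost without MSH2KO21B replicate 1 (adjusted p = 0.123) or replicate 2 (0.142) and with only transcripts of at least 300 coding nt (-0.26, adjusted p = 0.286), a limit that also removes coding models of Nnat itself. The nearest tested genes outside, Src, Manbal, Ctnnbl1 and Tti1, were all called lower by limma, with log2 differences from -0.63 to -0.38.

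Gnas was by far the most abundant member. It encodes the alpha subunit of the stimulatory G protein, and from promoters further upstream the paternally expressed XLas and the maternally expressed Nesp (ENSMUSG00000027523, chromosome 2, 174284320 to 174346744, plus strand). It fell from 1402 and 1500 TPM in MECPK to 725 and 739 TPM in MSH2KO21B (-0.98 ± 0.05 SE, limma adjusted p = 1.36e-04). The Nesp and XLas starts contributed next to nothing in either line. The 5 models that start at or near the Nesp promoter were listed at 0 in all 4 libraries, and the 6 at the XLas start summed to between 0.041 and 0.084 TPM. The 5 models that start from 174327768 onwards made up the rest. Gnas-202 and Gnas-208, which share the coding sequence of the full G protein subunit, each had 328 and 338 TPM in MECPK and 183 and 177 TPM in MSH2KO21B. They start at 174327768 and 174330089, and the shared coding sequence leaves these starts undivided. The largest share, 37.2% to 41.4%, was placed on Gnas-205, a fragment with 273 nt of coding sequence.

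Of the single-gene loci, Impact, whose product holds back the stress kinase GCN2, rose from 4.33 and 4.73 TPM to 8.77 and 8.74 TPM (0.82 ± 0.08 SE, limma adjusted p = 7.73e-04). The median of its chromosome, 18, was 0.559. Slc38a4, an amino acid transporter gene, was at 0 in both MECPK libraries and at 0.23 and 0.19 TPM in MSH2KO21B. Zdbf2 reached at most 0.0031 TPM, and Nap1l5 was listed at 0 in all 4 libraries while its host Herc3 had 6.38 and 6.13 TPM against 3.47 and 2.57 TPM. Dlk1, a surface protein of the Notch ligand family, was also listed at 0 throughout, and its neighbour Rtl1 reached 0.0095 TPM.

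Across the 18 members below the filter, the highest value was 0.577 TPM, in Cdkn1c, and 9 stayed under 0.1 TPM in all 4 libraries. Usp29, Zim1, Ascl2 and Slc38a4 were at 0 in both MECPK libraries and above 0 in both MSH2KO21B libraries. Peg12 and Asb4 showed the opposite. None of these 6 genes was tested.

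By known parental expression, 8 of the 21 paternally expressed members were tested and all were called by limma, 5 higher (62.5%) and 3 lower (37.5%) in MSH2KO21B, against 46.6% and 29.7% of all genes. Their median log2 difference was 0.72 and the median size without sign 2.36. That median moved to 0.27 with quantile normalization, to -0.002 with no filter on low values and to 2.98 with a filter of 10 TPM. Of the 14 maternally expressed members 9 were tested, 3 called higher (33.3%), 4 lower (44.4%), and Ube3a and Slc22a18 not called. Their median was -0.20 and the median size 0.75, against 0.19 and 0.60 over all genes tested. The sign of the maternal median was not stable: it was 0.05 without MECPK replicate 2, 0.19 with a filter of 10 TPM, 0.006 with no filter and 0.07 with only transcripts of at least 300 coding nt. Past 2-fold, 3 paternally expressed members were higher and 3 lower (75% of those tested), and 4 maternally expressed members were lower (44.4%) and 0 higher, against 30.3% of all genes in either direction. Among these, Peg3, Mest, Snrpn, Kcnq1 and Ppp1r9a passed the filter only through the line where they were high. That route was less common over all genes tested (14.4%), so these shares cannot be read as a property of either parental group. The difference between the parental groups was not tested, and the medians cover tested members alone.

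**Figure D4:**
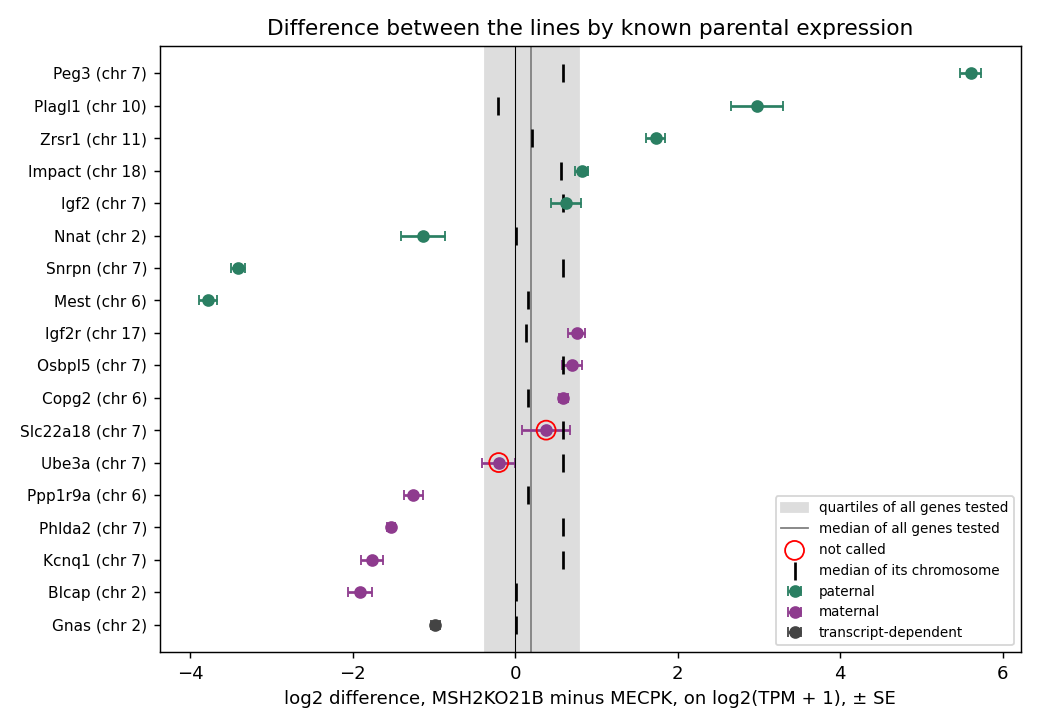
Log2 difference between the lines for each tested member with its SE, coloured by known parental expression; the grey band spans the quartiles of all genes tested and black ticks give the median of the gene's chromosome. Red rings mark Slc22a18 and Ube3a, which were not called.

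Genes that keep or remove the methylation marks of imprints were called about as often as other genes (75% of those tested, against 76.2%). Of 20 genes on this list 16 were tested, 11 called higher (68.8%, against 46.6% of all genes), 1 lower (6.25%, against 29.7%) and 4 not called by limma, with a median of 0.44 against 0.19 for all genes. Scaling moved this balance to 8 higher and 2 lower with quantile normalization and to 10 higher and 3 lower with median-ratio scaling. The balance of all genes moved too, with 4246 higher and 4577 lower under quantile normalization and 4533 higher and 4403 lower under median-ratio scaling. In that order the list median was 0.286 and 0.293, against -0.025 and 0.019 over all genes. Without MSH2KO21B replicate 2 the list median was 0.457, against 0.185 over all genes. The largest difference was in Zfp57, which binds the hexamer marked in the promoters above, at 0.42 and 0.24 TPM in MECPK and 3.93 and 5.73 TPM in MSH2KO21B (2.12 ± 0.18 SE, limma adjusted p = 5.13e-04). Zfp57 passed the filter only through MSH2KO21B. Zfp445, another zinc finger protein that guards imprints, had 12.5 and 14.3 against 39.1 and 34.5 TPM (1.39). The demethylating dioxygenase genes Tet2 (1.89) and Tet3 (1.65) were higher as well, and the chromatin remodeller gene Hells (-0.43) was the 1 called lower, a call lost without MECPK replicate 2 or without MSH2KO21B replicate 2. Dnmt1 was called higher, at 44.9 and 49.5 against 65.0 and 63.8 TPM (0.44 ± 0.07 SE, limma adjusted p = 0.0033).

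**Figure D5:**
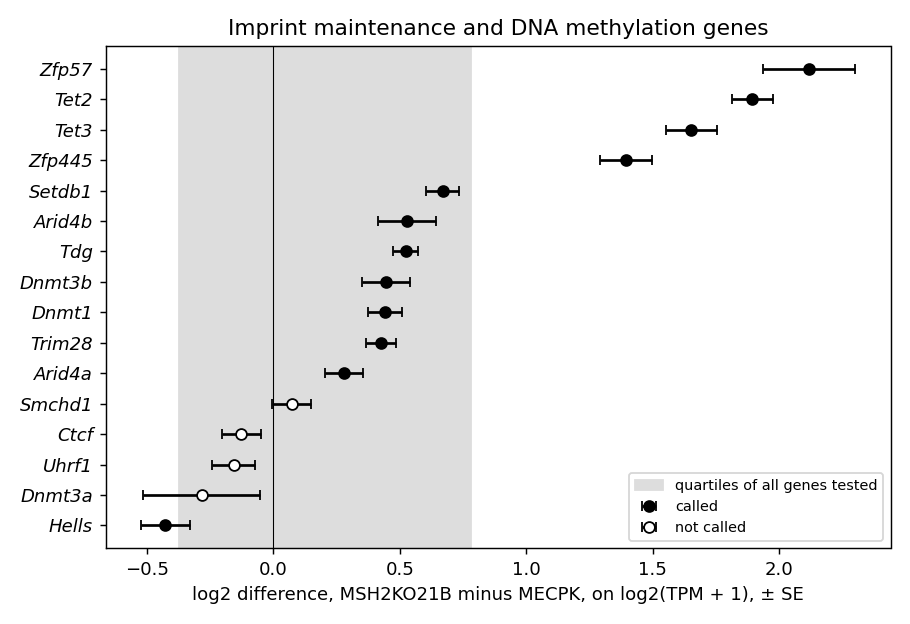
Log2 difference with its SE for the 16 tested genes of imprint maintenance and DNA methylation; filled points were called by limma, open points were not, and the grey band spans the quartiles of all genes tested. Zfp57, Tet2, Tet3 and Zfp445 lie above the band, Hells just below it and the others inside it.

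Among 43 other imprinted coding genes, 39 were in the table and 19 were tested, with 5 called higher (26.3%, against 46.6% of all genes), 9 lower (47.4%, against 29.7%) and 5 not called by limma (median -0.14). The share called, 73.7%, was near the 76.2% of all genes. Counts were 5 higher and 11 lower with quantile normalization, and 5 higher and 12 lower with median-ratio scaling. In that order the list median was -0.407 and -0.317, against -0.025 and 0.019 over all genes, whose own balance moved as given above. The higher ones included the homeobox gene Dlx5, listed at 0 in both MECPK libraries and at 9.17 and 8.04 TPM in MSH2KO21B, Qpct (2.44), the adaptor gene Gab1 (1.94) and Inpp5f (0.57). The largest negative differences were in Casd1, given above, Trappc9 (-1.46), Mcts2 (-1.36) and Tnfrsf23 (-1.21). Dlx5 and Qpct passed the filter only through MSH2KO21B, and Casd1 only through MECPK. Mcts2 is a retrocopy, so its values are uncertain. Several of these genes are imprinted in placenta or brain alone, and for none of them do the data say which copy was read.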

How the data were processed

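RNA from 2 libraries of each line was measured by sequencing, after extraction with a column kit, per the labels' protocols. The deposited table gives TPM per transcript, made by the authors with kallisto 0.43.1 and the mouse build GRCm38, per the submitters' processing notes. For strand setting, read length, depth and transcript set, nothing is stated in the sources used here. All 4 columns sum to 1000000. TPM keeps no depth, so no counting interval was computed.

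The values behave as abundances over coding sequence. Of 3596 pairs of transcripts of a gene with the same coding intervals but different spliced lengths, each at 1 TPM or more in every library, 99.8% were equal within 0.1% in all 4 libraries. Among 10131 pairs with different coding intervals 0.45% were. Short fragment models can therefore take a large TPM, and untranslated regions, where many promoters differ, do not separate transcripts.

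Transcripts were paired with GENCODE M21 genes by identifier without version (60503 of 61440 matched, and the unmatched held at most 0.944% of a library) and summed to 22594 genes. The fit was limma-trend (limma 3.58.1, R 4.3.3) on log2(TPM + 1) of the 11921 genes that reached 1 TPM in 2 or more libraries, with the line as the only term and Benjamini-Hochberg adjustment over all genes at 0.05. It was tested on simulated data. The fit had 2 residual and 2.49 prior degrees of freedom. Fold changes on this scale understate the change of low genes. No library was a copy of another.

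The members and lists were chosen with earlier results of these data known, so lists are described by counts and medians. All members are accounted for. By rule, up to 4 called genes per direction, ranked by size of difference, were named from the lists on imprint maintenance and on other imprinted genes, and neighbours mainly at loci with a member past 2-fold. Dnmt1, Snurf, Fignl1, Herc3 and Dync1i1 were named after their values were seen. Marker lists covered epithelial, Mullerian, fibroblast and stromal, trophoblast, neuronal, immune and endothelial cells. Alternatives were limma without the trend, quantile and median-ratio scaling, filtering at 10 TPM or not at all, 0.1 as pseudocount, a replicate block, protein-coding transcripts only, each library left out, and limma's treat test with 1 as the least log2 fold change. Summing only transcripts with at least 300 coding nt was added after seeing the data. The gene in the second line's name is not reported here.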

Additional observations from a re-analysis of the deposited data

How the results depend on the processing

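Under the settings run, 8 of the 18 tested members kept their direction and their side of the threshold. They were Peg3, Mest, Snrpn, Phlda2, Plagl1, Zrsr1, Kcnq1 and Blcap, although a filter of 10 TPM leaves Snrpn, Zrsr1 and Kcnq1 untested. With no filter on low values, 34 members were tested, 11 called higher and 11 lower, where 58.7% of all genes were called. Paternally expressed members were 6 higher and 5 lower, and maternally expressed ones 5 higher and 5 lower. With a filter of 10 TPM, 10 members were tested, 5 of them called higher and 4 lower, with 3 lower past 2-fold, and fewer genes tested is what moved these counts. Under that filter 77.6% of all genes tested were called. Paternally expressed members were 2 higher and 1 lower, and maternally expressed ones 3 higher and 2 lower. With 1 as the least log2 fold change, limma's treat called 3 members higher and 5 lower, and 2443 of all genes in place of 9088. Paternally expressed members were 3 higher and 2 lower, and maternally expressed ones 0 higher and 3 lower. Under treat the calls of Igf2r, Impact, Copg2, Gnas, Ppp1r9a, Osbpl5, Igf2 and Nnat were lost. Leaving out a library leaves its line without a replicate, and fewer of all genes were called in each of these fits. A call lost there cannot by itself be laid to the member. With all 4 libraries fitted, the Igf2 call was also lost under both scalings and with no filter on low values. The Nnat call was also lost with only transcripts of at least 300 coding nt. The sign held for every tested member except Slc22a18, which ranged from -0.046 to 0.80, and Ube3a, from -0.46 to 0.052. Ube3a was 0.081 with only transcripts of at least 300 coding nt, where Blcap could not be tested. With the replicate block 8 members were higher and 8 lower, and no member's call changed. Deviations of same-numbered libraries correlated at 0.016 over genes. No pairing by number showed, but with 2 libraries per line this value cannot exclude one. Without depth, values under 1 TPM cannot be resolved.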
